A study of Homo sapiens with 6 samples.

Results

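Aminoacyl-tRNA synthetases are the enzymes that attach each amino acid to its transfer RNA. The group described here holds 39 listed genes, which are 19 cytosolic synthetases or their subunits, 16 mitochondrial synthetases, the complex scaffolds AIMP1 and AIMP2, and the deacylases DTD1 and DTD2. Members were found by matching the Ensembl gene IDs of 6 count files to current gene symbols. This gave 38 of the 39 listed genes among 28979 gene IDs, and VARS2, the mitochondrial valyl-tRNA synthetase, was not analysed here. A filter on low counts kept 36 of these members for testing, beside 14547 tested genes in all, and left out MARS2 with 41 counts and SARS2 with 21 counts over the 6 libraries.

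The cells sequenced were MDA-MB-231, an established line of breast cancer that lacks the estrogen and progesterone receptors, and 3 were labelled Ang and 3 were labelled Con. The series design describes breast cancer cells given exosomes of hypertrophic or of normal heart muscle cells, and no label says what Ang and Con stand for, or gives a dose or a time. All libraries were of the same cell line, and no label says that they came from separate cultures. The p-values below therefore set the difference between Ang and Con against the spread of these libraries, and that spread may be technical.

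A synthetase first activates its amino acid with ATP and then transfers it to the matching transfer RNA, and several of them also remove amino acids attached in error. Human cells keep separate nuclear genes for most mitochondrial synthetases, while GARS1 and KARS1 each serve the cytosol and the mitochondrion. A set of cytosolic synthetases is held in a multi-synthetase complex by AIMP1, AIMP2 and EEF1E1. When amino acids run short, uncharged transfer RNA activates the kinase GCN2, and the transcription factor ATF4 then induces many cytosolic synthetase genes together with enzymes of amino acid synthesis. Deacylases work after the synthetases and strip wrongly attached amino acids from transfer RNA.

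Total counts were 3482629, 3961442 and 3596124 in Ang replicates 1 to 3, and 4807007, 5437190 and 3369212 in Con replicates 1 to 3. The members took between 0.211% and 0.239% of all counts in Ang libraries and between 0.199% and 0.263% in Con libraries. The MDA-MB-231 markers VIM, CD44 and others, of which 9 of 10 were in the files, summed to between 2505 and 2659 CPM (counts relative to the TMM-scaled library size) in Ang libraries and between 2029 and 2696 CPM in Con libraries. SPARC, also on this list, was nearly absent, with at most 4 counts in any library. The 8 epithelial and luminal markers listed as low in this line summed to between 990 and 1009 CPM in Ang libraries and between 849 and 1106 CPM in Con libraries. Nearly all of it was from the keratin KRT8, which was not low here, with means of 987 CPM in Ang and 955 CPM in Con. EPCAM averaged 9.76 CPM in Ang and 9.83 CPM in Con, and GATA3 3.14 CPM in Ang and 4.69 CPM in Con. ESR1 and CDH1, the estrogen receptor and E-cadherin, had at most 3 and 12 counts in any library. For PGR, FOXA1 and CLDN3, the rest of this list, it was at most 1, 8 and 5 counts. Of the cardiomyocyte markers 8 of 12 were in the files, and their sum was 218 to 259 CPM in Ang libraries and 205 to 312 CPM in Con libraries, nearly all of it from TTN, titin. Of TTN exon bases, 15.5% lie under exons on the other strand, and the source of its counts was not tested. NPPA averaged 8.31 CPM in Ang and 10.7 CPM in Con. Each of the other heart markers in the files had at most 16 counts in any library, with MYH6 and RYR2 at 1 or fewer. The part of these markers in the results below was not tested.

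No strand-marking step is named in the library protocol and the strand setting of the counting is not given, so how reads were divided between a gene and a partner on the other strand is uncertain. Of the 38 members, 18 share exon bases with a gene on the other strand and 20 do not. Over 7 members lie exons of a non-coding gene on the other strand, and in 5 of these pairs the non-coding gene had more counts per exon base than the member. The widest case is WARS1, the cytosolic tryptophanyl-tRNA synthetase, with 1496 counts over all libraries. All exon bases of ENSG00000258666 lie under WARS1 exons, and that non-coding gene had 4942 counts and 54.5 times the counts per base of WARS1. The same ratio was 29.1 for FARSA-AS1 over FARSA, 25.3 for ENSG00000251556 over LARS1, 23.7 for ENSG00000254420 over NARS2 and 14.9 for CARS1-AS1 over CARS1. It was 0.668 for WARS2-AS1 over WARS2 and 0.294 for GARS1-DT over GARS1. Summed over the 7 pairs, non-coding counts were 2.33, 1.96 and 2.34 times the member counts in Ang libraries, and 2.62, 1.73 and 2.76 times in Con libraries. How much of these members' counts is RNA of the named gene is therefore uncertain.

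The sequence around the start of several synthetase genes holds the composite letters TGATGNAA, known as the element that C/EBP and ATF proteins, ATF4 among them, bind as a pair. RefSeq promoter windows (GRCh38.p14, 250 bases before to 50 bases after the gene start) were at hand for 34 members. TGATGNAA was found on either strand in 8 of them, or 23.5%, against 3.62% of all 35116 windows and 2.72% of the 9918 tested genes with a window. It was in 7 of 16 cytosolic and 1 of 14 mitochondrial synthetase windows. The match with 16 flanking bases is shown for each of the 8 genes because, of the 9 motifs searched, its share differed most between cytosolic and mitochondrial windows. Each line runs 5′ to 3′ on the strand of the gene, and the capitals mark TGATGNAA or its reverse complement.
AARS1, chr16:70289670-70289709, minus strand: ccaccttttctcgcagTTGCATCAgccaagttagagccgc
CARS1, chr11:3057402-3057441, minus strand: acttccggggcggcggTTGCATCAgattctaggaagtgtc
GARS1, chr7:30594829-30594868, plus strand: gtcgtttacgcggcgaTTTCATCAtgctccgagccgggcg
IARS1, chr9:92293687-92293726, minus strand: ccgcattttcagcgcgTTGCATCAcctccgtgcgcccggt
MARS1, chr12:57488048-57488087, plus strand: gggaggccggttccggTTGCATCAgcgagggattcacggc
NARS1, chr18:57621799-57621838, minus strand: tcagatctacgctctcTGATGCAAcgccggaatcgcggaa
TARS1, chr5:33440951-33440990, plus strand: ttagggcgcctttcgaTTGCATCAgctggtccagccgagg
YARS2, chr12:32756071-32756110, minus strand: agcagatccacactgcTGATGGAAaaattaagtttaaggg
AARS1, CARS1, IARS1, MARS1 and TARS1 hold the same 8 letters, TTGCATCA, and NARS1 holds their reverse complement, TGATGCAA. GARS1 has TTTCATCA, and YARS2 has TGATGGAA. The match is a description of these letters, not evidence of binding.

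The other motifs were searched on both strands in the same windows. The ETS letters CCGGAAG were in 17 of 34 members, 9 of them cytosolic and 7 mitochondrial synthetases, against 10.3% of all windows and 22.3% of tested genes. The SP letters GGGCGG were in 26 members, against 45.0% of all windows and 75.8% of tested genes, and CCAAT was in 18, against 34.6% and 42.6%. The YY1 letters ATGGCGG were in 8 members, YARS2 and KARS1 among them, against 5.55% and 12.4%. The NRF1 letters GCATGCGC were in MARS2 and YARS2, against 3.05% and 6.30%. The cyclic AMP response letters TGACGT were in 5 members, against 7.98% and 14.1%, and the full TGACGTCA, which contains them, was in AIMP2, against 1.85% and 3.95%. The E-box CACGTG was in 5 members, against 7.26% and 12.5%.

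The cytosolic synthetases were all detected, and their levels per exon length spanned nearly an order of magnitude. Levels are given in RPKM, which is CPM per kilobase of annotated exon, and the exon length joins all annotated transcripts of a gene. GARS1, the glycyl-tRNA synthetase (ENSG00000106105, chr7:30594681-30634033), had 44.5, 54.5 and 44.1 RPKM in Ang libraries and 42.6, 47.8 and 46.2 RPKM in Con libraries. SARS1, the seryl-tRNA synthetase, had 41.8, 45.4 and 36.4 RPKM in Ang libraries and 40.3, 45.3 and 37.8 RPKM in Con libraries. TARS1, the threonyl-tRNA synthetase, had 39.4, 41.8 and 37.8 RPKM in Ang libraries and 41.9, 44.1 and 38.5 RPKM in Con libraries. GARS1 was above SARS1 in 6 of 6 libraries, while SARS1 was above TARS1 in only 3 of 6.

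MARS1, the methionyl-tRNA synthetase, followed with 33.2, 35.6 and 34.1 RPKM in Ang libraries and 38.8, 29.8 and 33.6 RPKM in Con libraries. Of its exon bases, 12.4% lie under genes on the other strand, DDIT3 among them. EPRS1, the single protein that charges glutamic acid and proline, had 25.8, 25.1 and 22.8 RPKM in Ang libraries and 26.5, 26.9 and 23.4 RPKM in Con libraries. Both stood in the upper part of the cytosolic order, with no gap between the groups.

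At the low end, FARSA and FARSB encode the subunits of the phenylalanyl-tRNA synthetase, and VARS1 the valyl-tRNA synthetase. FARSA had 5.42, 5.38 and 9.85 RPKM in Ang libraries and 7.29, 9.72 and 7.10 RPKM in Con libraries. VARS1 had 4.0, 6.01 and 6.51 RPKM in Ang libraries and 4.58, 7.20 and 4.14 RPKM in Con libraries. FARSB averaged 5.53 ± 0.868 RPKM (SD, n = 6), close to VARS1 at 5.41 ± 1.35 RPKM, and was above it in 3 of 6 libraries. Of the 18 neighbours in the cytosolic order, 5 kept their order in 6 of 6 libraries, so most neighbours cannot be told apart beyond the spread between libraries.

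The 7 cytosolic synthetase genes with the composite letters had a median level of 24.8 RPKM, against 10.2 RPKM for the 9 whose windows lack them. Synthetases of catalytic class II, which carry an antiparallel sheet as active site, had a median of 23.7 RPKM over 9 genes, and those of class I, built on a nucleotide-binding fold, 9.18 RPKM over 9 genes, EPRS1 with both kinds of site being left out. These are medians over different genes that were not chosen independently of the data, and no test was made of them.

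**Figure D1:**
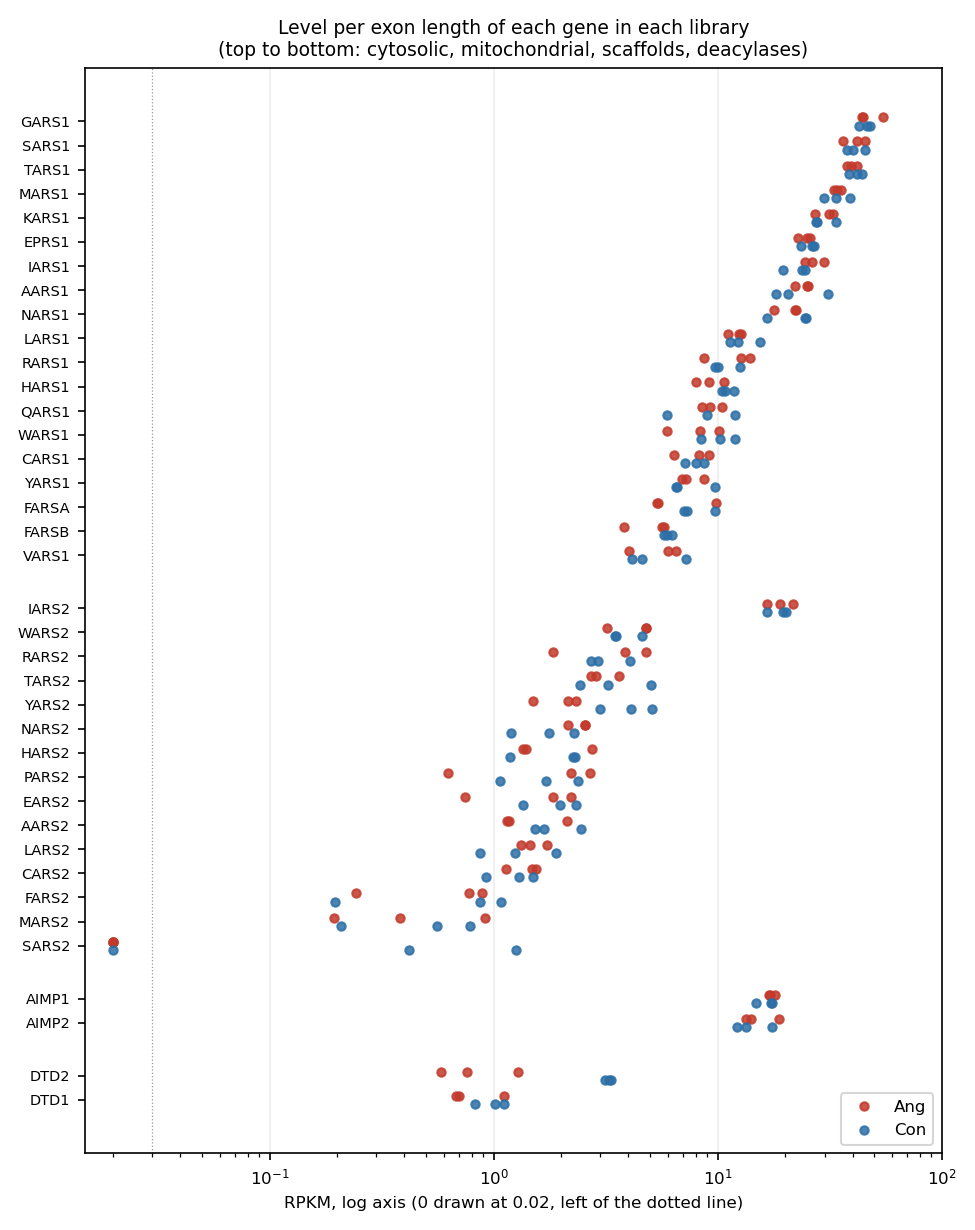
Level of each gene in RPKM (log axis) in each library, with Ang above Con in each row. Points of the cytosolic rows lie mostly right of the mitochondrial rows, IARS2 stands among the cytosolic genes, and SARS2 was at 0 in all 3 Ang libraries and in Con replicate 1.

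Between Ang and Con the cytosolic synthetases were close to each other. No gene of the 14547 tested had an adjusted p under 0.05 (0% called, smallest adjusted p 0.999, quasi-likelihood test of edgeR, Benjamini-Hochberg adjusted), nor with DESeq2 or limma-voom. Under an unadjusted p of 0.05 there were 494 genes, or 3.4% of those tested, 206 of them higher in Ang (1.42%) and 288 lower (1.98%). None of the 36 tested members was called, and 2 had an unadjusted p under 0.05, DTD2 and YARS2, both lower in Ang. Without Con replicate 2, 40 of 14867 genes were called (0.269%), 0 of them members. In that fit 4 members had an unadjusted p under 0.05, AARS1 and IARS1 higher and DTD2 and YARS2 lower in Ang, beside 11% of all tested genes. The group was selected on gene family after counts of this same contrast had been seen, the low Ang counts of DTD2 among them, so the Ang and Con values of its members are a description.

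Over the 19 cytosolic genes the fitted log2 fold change, Ang over Con, was positive in 9 and negative in 10, with a median of -0.002 and a range of -0.33 to 0.25. Over all tested genes the median was -0.01, with 7151 positive and 7396 negative. In 19 of 19 cytosolic genes the 95% interval excluded a 2-fold difference either way, and this held for 64.2% of all tested genes. The median standard error was 0.18 for the cytosolic genes and 0.30 for all tested genes.

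Among cytosolic genes the fold changes furthest from 0 were those of WARS1 and IARS1. WARS1 had 37.9, 64.3 and 53.1 CPM in Ang libraries and 64.8, 76.2 and 53.5 CPM in Con libraries, a log2 fold change of -0.33 ± 0.20 (SE, unadjusted p = 0.106, edgeR quasi-likelihood test). Its Ang and Con libraries overlapped, and ENSG00000258666, which shares its exon bases, had -0.13 ± 0.17. IARS1, the isoleucyl-tRNA synthetase, had 196, 221 and 182 CPM in Ang libraries and 175, 182 and 144 CPM in Con libraries, a log2 fold change of 0.25 ± 0.17 (unadjusted p = 0.144, edgeR). Every Ang library was above every Con library in IARS1, with its lowest Ang and highest Con library equal to 3 digits.

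FARSB had 19.1, 12.9 and 19.4 CPM in Ang libraries and 21.1, 19.9 and 19.5 CPM in Con libraries, a log2 fold change of -0.24 ± 0.30 (unadjusted p = 0.409, edgeR). Every Ang library was below every Con library, again by a narrow margin at the closest libraries. Groups that do not overlap with Ang lower were seen in 3 members, DTD2, YARS2 and FARSB, beside 661 of all tested genes (4.54%), and with Ang higher in 1 member, IARS1, beside 526 (3.62%), so in 4 of 36 members either way, beside 8.16% of all tested genes. YARS1, the tyrosyl-tRNA synthetase, had 57.2, 59.5 and 71.3 CPM in Ang libraries and 53.9, 80.3 and 53.5 CPM in Con libraries, with a log2 fold change of -0.004 ± 0.20.

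**Figure D2:**
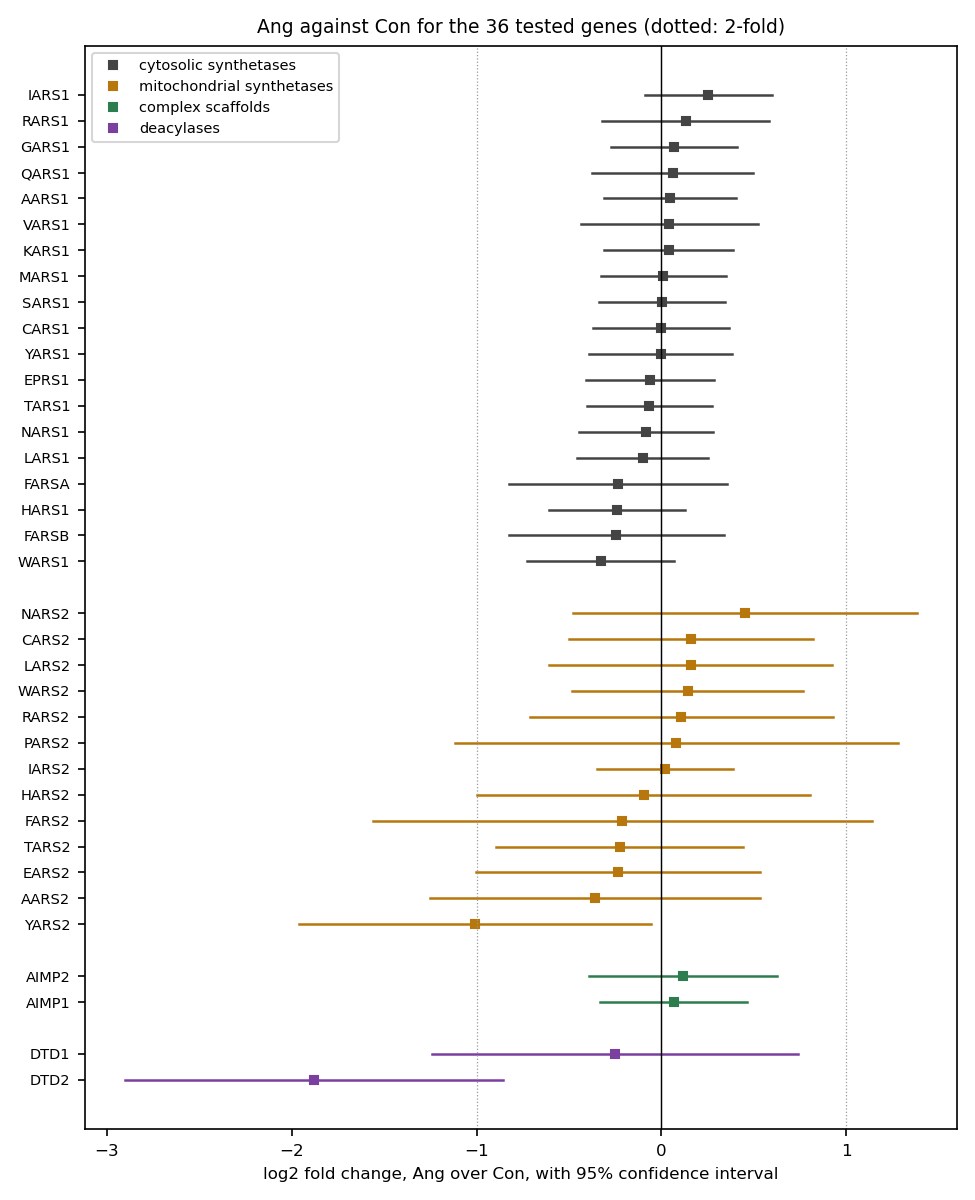
Log2 fold change of Ang over Con with its 95% confidence interval for each of the 36 tested members, by class. All cytosolic intervals lie between the 2-fold lines, mitochondrial intervals are wider, and the intervals of DTD2 and YARS2 lie wholly below 0.

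The multi-synthetase complex holds 7 of the listed cytosolic synthetases with the scaffolds. AIMP1, whose cleaved fragment is also known as a cytokine, had 60.2, 56.5 and 56.9 CPM in Ang libraries and 57.7, 58.3 and 49.4 CPM in Con libraries. Its log2 fold change was 0.07 ± 0.20. AIMP2, the scaffold that links the subcomplexes, had 25.8, 24.7 and 34.7 CPM in Ang libraries and 24.5, 22.5 and 32.1 CPM in Con libraries. Its log2 fold change was 0.12 ± 0.26, and 28.9% of its exon bases lie under EIF2AK1 on the other strand. Neither scaffold had groups that stood apart.

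EEF1E1, the third scaffold and no listed member, had 2.93, 10.3 and 4.62 CPM in Ang libraries and 3.80, 4.40 and 3.15 CPM in Con libraries, a log2 fold change of 0.65 ± 0.57 in which Ang replicate 2 was the high library. Over these 10 tested genes of the complex 0 were called and 8 had a positive fold change, with a median of 0.06. Per exon length the complex synthetases had a median level of 24.8 RPKM over 7 genes, and the 12 cytosolic synthetases outside it 9.68 RPKM. Fold changes were positive in 5 of 7 complex synthetases and in 4 of 12 others, and no test was made of this difference.

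The mitochondrial synthetases were measured at much lower levels, with a single exception. IARS2, the mitochondrial isoleucyl-tRNA synthetase (ENSG00000067704, chr1:220094102-220148041), had 19.0, 21.6 and 16.6 RPKM in Ang libraries and 20.2, 19.6 and 16.6 RPKM in Con libraries. WARS2, the tryptophanyl enzyme, came next with 3.20, 4.78 and 4.81 RPKM in Ang libraries and 4.61, 3.47 and 3.52 RPKM in Con libraries. RARS2, the arginyl enzyme, had 1.84, 3.86 and 4.77 RPKM in Ang libraries and 4.07, 2.92 and 2.72 RPKM in Con libraries. IARS2 was 4.66 times WARS2 on average, and IARS2, WARS2 and RARS2 kept this order in 6 of 6 libraries.

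FARS2, the mitochondrial phenylalanyl enzyme, was among the lowest, with 0.243, 0.887 and 0.777 RPKM in Ang libraries and 0.874, 1.08 and 0.195 RPKM in Con libraries. MARS2, the methionyl enzyme that also charges the initiator of mitochondrial translation, had 2, 11 and 4 counts in Ang libraries and 8, 14 and 2 counts in Con libraries. SARS2, the seryl enzyme, had 0, 0 and 0 counts in Ang libraries and 0, 8 and 13 counts in Con libraries. A count of 0 allows 3 counts, or up to 0.880, 0.756 and 0.867 CPM in the Ang libraries and 0.634 CPM in Con replicate 1, and such limits cover counting error only. Exons of another gene on the same strand cover 46.2% of SARS2 exon bases, and how reads there were assigned is not given in the sources used here, so SARS2 was not comparable between the groups.

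The fitted log2 fold change was positive in 7 and negative in 6 of the 13 tested mitochondrial genes, with a median of 0.02 and a range of -1.01 to 0.45. The 95% interval lay within 2-fold for 7 of the 13, with a median standard error of 0.42. In the others a 2-fold difference in at least 1 direction lay inside the interval and was not excluded. IARS2, the deepest of the 13, had a log2 fold change of 0.02 ± 0.19. The high end was NARS2, the asparaginyl enzyme, at 0.45 ± 0.47, which shares exon bases with the non-coding ENSG00000254420. EARS2, the glutamyl enzyme, had 10.6, 4.29 and 12.7 CPM in Ang libraries and 13.3, 7.78 and 11.3 CPM in Con libraries, a log2 fold change of -0.24 ± 0.39.

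YARS2, the mitochondrial tyrosyl-tRNA synthetase (ENSG00000139131, chr12:32727490-32755902, minus strand), is known from inherited myopathy with sideroblastic anemia. Its counts were 11, 20 and 16 in Ang libraries and 52, 38 and 28 in Con libraries, which is 3.23, 5.04 and 4.62 CPM and 11.0, 6.42 and 8.81 CPM. Every Ang library was below every Con library, at 4.30 ± 0.950 CPM in Ang and 8.74 ± 2.28 CPM in Con (SD, n = 3 each). The log2 fold change was -1.01 ± 0.48 (95% interval -1.96 to -0.06, unadjusted p = 0.038, adjusted p = 0.999, edgeR), so it was not called. With limma-voom the unadjusted p was 0.0704, and without 1 library it was above 0.05 for Ang replicate 1 (0.113), Ang replicate 3 (0.0532), Con replicate 1 (0.154) and Con replicate 3 (0.0581).

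Other genes at the same place on chromosome 12 had fold changes nearer to 0. DNM1L, the mitochondrial fission GTPase on the other strand, had 255, 322 and 238 counts in Ang libraries and 414, 384 and 303 counts in Con libraries, a log2 fold change of -0.13 ± 0.19. ENSG00000275854, a non-coding gene inside a YARS2 intron on the same strand, had 163, 188 and 246 counts in Ang libraries and 373, 284 and 239 counts in Con libraries, a log2 fold change of -0.28 ± 0.20. No exon base of YARS2 lies under an exon on the other strand. The RefSeq window of YARS2 (chr12:32755848-32756147, minus strand, GRCh38.p14) is shown whole because it joins the composite, NRF1 and YY1 letters. The capitals mark TGATGGAA, GCATGCGC and each ATGGCGG or its reverse complement.
YARS2: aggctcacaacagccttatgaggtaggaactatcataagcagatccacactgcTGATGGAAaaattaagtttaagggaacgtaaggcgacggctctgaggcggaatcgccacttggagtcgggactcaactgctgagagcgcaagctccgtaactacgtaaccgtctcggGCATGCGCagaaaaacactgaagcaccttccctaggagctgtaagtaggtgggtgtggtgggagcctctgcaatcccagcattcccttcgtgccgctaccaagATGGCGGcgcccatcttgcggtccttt

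**Figure D3:**
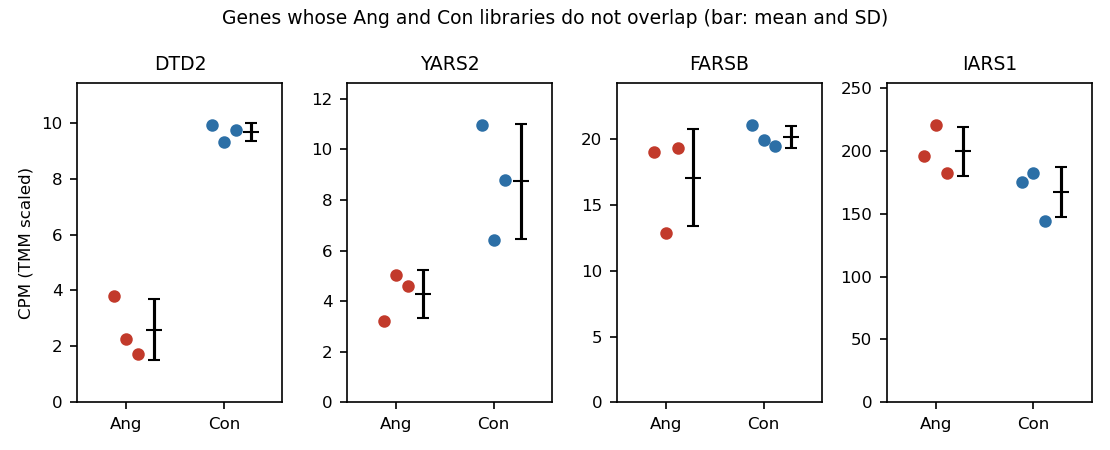
CPM in each library for the 4 members whose Ang and Con libraries do not overlap, with bars for mean and SD (n = 3 each). DTD2 and YARS2 show a gap between the groups, while in FARSB and IARS1 the closest libraries of both groups nearly touch.

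Set against each other within a library, the cytosolic genes were about 7 times as high as the mitochondrial genes in both groups. The median level of the 19 cytosolic genes was 13.9, 12.7 and 12.8 RPKM in Ang libraries and 15.4, 12.3 and 12.6 RPKM in Con libraries. The median of the 15 mitochondrial genes was 1.84, 1.54 and 2.15 RPKM in Ang libraries and 2.32, 1.91 and 1.29 RPKM in Con libraries. The difference of the medians on the log2(RPKM + 0.1) scale was 2.78 ± 0.23 in Ang and 2.83 ± 0.31 in Con (SD, n = 3 each), which differ by less than the spread between libraries. Over all 6 libraries it was 2.80 ± 0.25, a 6.98-fold difference of levels.

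The same was seen in summed counts. Cytosolic genes summed to 1993 ± 102 CPM in Ang and 1996 ± 139 CPM in Con, and mitochondrial genes to 185 ± 9.48 CPM in Ang and 189 ± 18.0 CPM in Con (SD, n = 3 each). The ratio of the sums was 11.1, 10.8 and 10.4 in Ang libraries and 10.2, 10.5 and 10.9 in Con libraries, and the groups overlapped. Restricted to genes without exon overlap on the other strand, 10 cytosolic and 8 mitochondrial, the difference of medians was 3.32 on the log2 scale. In bulk libraries, fewer cells of a kind and less RNA per cell cannot be told apart.

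Of 15 pairs that charge the same amino acid, with FARSA taken for the cytosolic phenylalanyl enzyme and EPRS1 set against both EARS2 and PARS2, the cytosolic gene was higher in 6 of 6 libraries in 15. The mean level of SARS1 was far above that of SARS2, for which no fold is given, as SARS2 was at 0 in 4 of 6 libraries and another gene covers 46.2% of its exon bases. By ratio of mean levels MARS1 was 67.3 times MARS2, and EPRS1 was 14.4 times EARS2. The ratio for MARS2 rests on 41 mitochondrial counts. At the other end YARS1 was 2.52 times YARS2, WARS1 was 2.26 times WARS2, and IARS1 was 1.31 times IARS2, with a range over libraries of 1.17 to 1.49. IARS1 and IARS2 were thus at nearly equal levels, yet in the same order in every library.

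**Figure D4:**
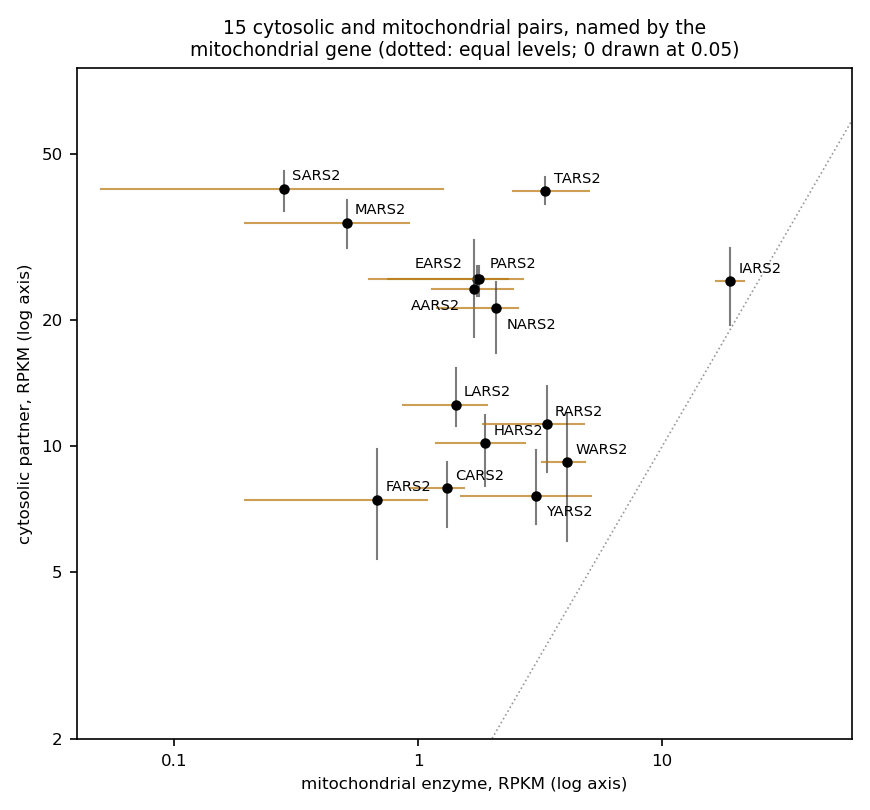
Mean RPKM of each mitochondrial synthetase gene (x axis, log) and its cytosolic partner (y axis, log), with bars for the range over 6 libraries. All 15 pairs lie above the dotted line of equal levels, IARS2 closest to it and SARS2 and MARS2 furthest.

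HARS1 and HARS2, the cytosolic and mitochondrial histidyl-tRNA synthetases, lie head to head on chromosome 5, with RefSeq starts 85 bases apart on opposite strands. HARS1 was 5.43 times HARS2 on average, and the ratio ran from 2.92 to 10.1 over the libraries. The log2 fold change was -0.24 ± 0.19 for HARS1 and -0.09 ± 0.46 for HARS2. Exon bases of HARS1 and HARS2 overlap each other, and how reads there were assigned is uncertain. The stretch shared by both RefSeq windows (chr5:140691321-140691504, plus strand, the strand of HARS2) is shown because it holds the starts of a cytosolic and of a mitochondrial gene. It runs 50 bases past each start into the gene. The capitals mark the ETS letters CCGGAAG or their reverse complement.
HARS1 and HARS2: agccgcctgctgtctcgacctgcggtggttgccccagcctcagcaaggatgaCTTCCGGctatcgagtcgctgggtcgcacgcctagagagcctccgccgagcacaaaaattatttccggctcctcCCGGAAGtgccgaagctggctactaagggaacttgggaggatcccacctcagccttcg

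The deacylases act on charged transfer RNA after the synthetases. DTD1 removes D-amino acids from transfer RNA, and DTD2 is known in animals to remove alanine that a synthetase has put on threonine transfer RNA. DTD2 (ENSG00000129480, chr14:31446036-31457510, minus strand) had 13, 9 and 6 counts in Ang libraries and 47, 55 and 31 counts in Con libraries. This is 3.81, 2.27 and 1.73 CPM in Ang libraries and 9.93, 9.30 and 9.75 CPM in Con libraries. The highest Ang library was well below the lowest Con library, and the means were 2.61 ± 1.08 CPM in Ang and 9.66 ± 0.324 CPM in Con (SD, n = 3 each).

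The log2 fold change of DTD2 was -1.88 ± 0.52, with a 95% interval of -2.91 to -0.86, or 0.271 times the Con level. Its unadjusted p of 0.000352 ranked 4 among the 14547 tested genes, and the adjusted p was 0.999 (edgeR, Benjamini-Hochberg adjusted), so DTD2 was not called. Over the alternative tests and the fits without a library the log2 fold change ran from -2.25 to -1.67. The adjusted p ran from 0.125, without Con replicate 2, to above 0.999. The value of DTD2 was known from earlier results of these data when the members were chosen, so its rank is a description.

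The neighbours of DTD2 on chromosome 14 had fold changes nearer to 0. HEATR5A-DT, a non-coding gene on the other strand that reaches into DTD2 without sharing exon bases, had 361, 392 and 279 counts in Ang libraries and 590, 515 and 389 counts in Con libraries, a log2 fold change of -0.22 ± 0.18. It had 1.41 counts per exon base over all libraries, against 0.0542 for DTD2. HEATR5A had 13, 20 and 25 counts in Ang libraries and 39, 48 and 8 counts in Con libraries, a log2 fold change of -0.26 ± 0.50. Another annotated gene on the same strand covers 16.3% of the exon bases of DTD2.

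The RefSeq window of DTD2 (chr14:31457457-31457756, minus strand, GRCh38.p14) is shown because DTD2 had the largest fold change of any tested member. Of the motifs searched it held only the SP letters, which are common to promoters, and the capitals mark GGGCGG and its reverse complement.
DTD2: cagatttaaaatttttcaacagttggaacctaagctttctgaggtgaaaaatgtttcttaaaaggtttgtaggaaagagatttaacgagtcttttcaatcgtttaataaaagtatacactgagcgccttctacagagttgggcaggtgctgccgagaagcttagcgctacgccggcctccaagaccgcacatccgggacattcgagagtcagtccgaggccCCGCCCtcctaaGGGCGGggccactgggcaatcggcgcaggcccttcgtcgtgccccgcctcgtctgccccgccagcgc

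DTD1 (ENSG00000125821) had 4.40, 4.54 and 7.22 CPM in Ang libraries and 7.18, 6.59 and 5.35 CPM in Con libraries, and the groups overlapped. Its means were 5.39 ± 1.59 CPM in Ang and 6.37 ± 0.936 CPM in Con (SD, n = 3 each), with a log2 fold change of -0.25 ± 0.50 and an interval of -1.24 to 0.74. Per exon length DTD1 averaged 0.910 ± 0.199 RPKM and DTD2 2.06 ± 1.32 RPKM over the 6 libraries. For neither deacylase did the 95% interval lie within 2-fold in both directions.

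The genes that work with the synthetases showed a like lack of calls. Among charging partners and genes of tRNA maturation, 13 of 15 were tested, 0 were called and 7 had a positive fold change, with a median of 0.04. GATB, a subunit of the amidotransferase that makes mitochondrial glutaminyl-tRNA from the product of EARS2, had 6.46, 6.30 and 6.64 CPM in Ang libraries and 7.60, 13.7 and 13.2 CPM in Con libraries. Every Ang library was below every Con library in 2 of the 13, GATB and ELAC2, beside 4.54% of all tested genes. The log2 fold change of GATB was -0.83 ± 0.41 (unadjusted p = 0.0448, edgeR), and GATB was the single gene of this list under 0.05. TRNT1, which adds the CCA end, had -0.29 ± 0.21, and PRORP, the nuclease of mitochondrial RNase P, -0.31 ± 0.23.

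Of 29 genes of tRNA modification 27 were tested, 0 were called and 15 had a positive fold change, with a median of 0.04. None had an unadjusted p under 0.05. CTU2, of the enzyme that thiolates the wobble uridine, had 8.80, 11.1 and 16.5 CPM in Ang libraries and 3.17, 6.09 and 12.3 CPM in Con libraries, a log2 fold change of 0.80 ± 0.41 (unadjusted p = 0.0508, edgeR). Its groups overlapped. MTO1, a mitochondrial wobble-uridine enzyme, had 0.49 ± 0.32, and TRMT61A, a methyltransferase, -0.83 ± 0.69. Every Ang library was below every Con library in 2 of the 27, TRMT61A and TRIT1, beside 4.54% of all tested genes.

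The amino acid response list holds the kinase GCN2 (EIF2AK4), its substrate EIF2S1, ATF4 and other genes of this response outside the synthetases. Of 28 genes 25 were tested, 0 were called, 9 had a positive and 16 a negative fold change, and the median was -0.07. PSPH, the last enzyme of serine synthesis, had 2.35, 4.29 and 4.91 CPM in Ang libraries and 8.66, 14.2 and 8.49 CPM in Con libraries, a log2 fold change of -1.44 ± 0.47 (unadjusted p = 0.00219, edgeR). PSAT1, the enzyme before it, had 28.2, 27.7 and 32.1 CPM in Ang libraries and 43.7, 43.8 and 37.4 CPM in Con libraries, a log2 fold change of -0.51 ± 0.24 (unadjusted p = 0.0311, edgeR). PSPH has a near-identical pseudogene copy, so its counts are uncertain. In PSPH and PSAT1 every Ang library was below every Con library, beside 4.54% of all tested genes, and neither was called. ASNS, the asparagine synthetase, is added after its values were seen. It was left untested by the filter, with 0, 0 and 0 counts in Ang libraries and 2, 15 and 3 counts in Con libraries. CHAC1 and NUPR1, also untested, each had 1, 3 and 5 counts in Ang libraries. In Con libraries CHAC1 had 0, 3 and 4 counts and NUPR1 8, 10 and 0 counts. As a count of 0 allows 3 counts, no comparison of the groups is drawn from these genes.

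PYCR1, of proline synthesis, had -0.35 ± 0.25, and ATF4 itself -0.15 ± 0.18. The 8 synthetase genes with the composite letters did not share a direction, with 4 positive and 4 negative fold changes and a median of 0.00. The 24 tested members with a window that lacks them had 13 positive fold changes and a median of 0.01. YARS2 was the lowest of the 8 at -1.01, and IARS1 the highest at 0.25.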

How the data were processed

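Messenger RNA of MDA-MB-231 cells was sequenced in 3 Ang and 3 Con libraries, grouped by their labels. Per the labels' protocols, RNA was selected on poly-T beads, primed with random oligonucleotides and amplified in 15 PCR cycles. The authors deposited 1 table per library of whole-number read counts, by Ensembl gene ID. HTSeq 0.9.1, DESeq 1.39.0 and build GRCh38 are named in the submitters' processing notes. Aligner, annotation release and strand setting of the counting are not given in the sources used.

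Of 28979 gene IDs, 28918 matched a symbol and 28192 matched GENCODE 29, which gave exons and positions. No row lacked a gene. The deposited counts were fitted with edgeR 4.0.16 in R 4.3.3 (filterByExpr, TMM scaling, robust quasi-likelihood test, no replicate term), with Benjamini-Hochberg adjustment over all 14547 tested genes and a threshold of 0.05. CPM and RPKM use TMM-scaled library sizes, and a pseudocount of 0.1 was added before log2 of RPKM. Libraries of the same group differed by more than sampling noise, with a chi-square of 3.60 to 12.8 per gene. It was 3.60 to 3.92 between Ang libraries and 6.79 between Con replicates 1 and 3. The pairs with Con replicate 2 stood apart, at 12.8 with Con replicate 1 and 12.5 with Con replicate 3. The libraries held between 3369212 and 5437190 counts.

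No label says that replicate numbers pair the libraries, so they were not treated as pairs. Deviations from the group means correlated at 0.037, 0.068 and 0.036 between Ang and Con libraries of the same number. Between libraries of different numbers the correlations ran from -0.070 to 0.030. All these values are small, and they do not settle whether the libraries were paired. Alternatives were RLE scaling, other filters, DESeq2 1.42.0, limma-voom (limma 3.58.1), a replicate block, each library left out, CPM in place of RPKM, another pseudocount, and genes without exon overlap on the other strand. Values in every library are given for deacylases, scaffolds, members with an unadjusted p under 0.05 or groups that do not overlap, the 3 highest and 3 lowest genes of each compartment, and the 3 pairs with the largest and the 3 with the smallest ratio. Up to 3 genes of each pathway list were named by smallest unadjusted p, some of them with the fold change only. The members, lists and tests were chosen with earlier results of these data known.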

Additional observations from a re-analysis of the deposited data

How the results depend on the processing

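The count of members with an unadjusted p under 0.05 was 2. It was 3 with no low-count filter, which brings in SARS2 (unadjusted p = 0.00582, adjusted p = 0.865, edgeR) at 0 counts in all 3 Ang libraries. It was 1 with limma-voom and ran from 1 to 4 when a library was left out, and 0 members were called in any fit run. Over all genes the called count ran from 0 to 40 over fits without a library, the 40 when Con replicate 2 was left out and 1 when Con replicate 1 was, and the cause was not tested. Members whose groups do not overlap numbered 3 to 7 lower in Ang and 1 to 4 higher in Ang without a library, as 2 libraries against 3 leave fewer ways to overlap by construction. The 7 were of 37 members without Con replicate 3, beside 9.85% of all genes tested in that fit, and the 4 were of 36 without Con replicate 2, beside 13.5%. The median fold change without a library ran from -0.11 to 0.0084 for cytosolic genes, from -0.18 to 0.13 for mitochondrial genes and from -0.12 to 0.04 for all members, on the log2 scale.

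The cytosolic minus mitochondrial level of 2.80 was 3.50 with CPM in place of RPKM, which differs from RPKM only by leaving out the exon length. It was 2.33 with a pseudocount of 1, which lowers it by construction. With genes without exon overlap on the other strand it was 3.32, and the cause of that move was not tested. The level of 2.80 ran from 2.73 to 2.86 without a library. The cytosolic partner was higher in 4 of 4 pairs without overlap, and in 15 of 15 in every fit without a library. With the replicate block 0 genes and 0 members were called, 2 members had an unadjusted p under 0.05, and DTD2 had -1.92 with an adjusted p of 0.656 (edgeR). Of the alternative values of single members, 376 kept direction and side of the threshold and 56 changed sign without a call. The median standard error was 0.42 for mitochondrial genes and 0.18 for cytosolic genes, and IARS2 at 0.19 was within the cytosolic range.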
